A study of Mus musculus with 8 samples.

Results

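Arterial endothelial cells are the cells that line the arterioles and small arteries feeding the fat pad. They were picked out here among the stromal vascular cells of mouse inguinal white fat, the mix of vessel, stromal and immune cells left when floating adipocytes are removed from digested tissue. A cell barcode was taken as arterial when its counts of unique molecular identifiers (UMIs, 1 per captured RNA molecule) reached 3 over the endothelial genes Pecam1, Cdh5 and Egfl7 together and 2 over Sema3g, Hey1, Gja5 and Stmn2 together. It also had no UMI of the venous genes Selp and Ackr1, of the lymphatic gene Prox1, of the leukocyte gene Ptprc or of the stromal gene Pdgfra. Of 36370 cells kept from 44427 barcodes, 8164 were endothelial by the same gene sum without a lymphatic, leukocyte or stromal UMI, and 1688 were arterial. These were 20.7% of the endothelial cells and 4.64% of the cells kept. Because the cells were selected on these 12 genes, the levels of those genes are given as a description only.

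C57BL/6 mice fed ad libitum (Ad-Lib) were compared with mice given food in 2 nightly windows (twice-a-night, TAN), without any genetic change in either group. The strain is C57BL/6J in the study's methods. The age is uncertain, being 8 weeks in the labels and higher, with males only, in the study's methods. Those methods place tissue collection in general at midnight, after the first feeding window of TAN mice. The part of meal timing in the differences between feeding groups was not tested. Each group had 4 droplet libraries (10x Genomics), which the labels number 1, 3, 5 and 7 in Ad-Lib and 2, 4, 6 and 8 in TAN. Nothing in the labels says whether a library came from 1 mouse or from several, so p-values measure the spread between libraries. The libraries held between 25320800 and 37140950 UMIs, and the arterial cells of a library numbered between 169 and 280. No barcode was shared between libraries among these cells.

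Arterial identity is set early in vessel growth by Notch signalling. The ligands Dll4 and Jag1 act on the receptors Notch1 and Notch4, and Hey1, Hey2 and Heyl are transcription factors that Notch turns on. Sox17 works upstream of Notch in arteries, and the arterial surface protein Efnb2 meets its receptor Ephb4 on veins. Arterial cells are joined by the gap junction proteins Gja4 and Gja5, sense flow, release the vasoconstrictor Edn1 and carry the elastic fibre proteins of the vessel wall, while the capillaries of fat carry the machinery that takes up fatty acids.

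The label held up against markers that the selection did not use. Efnb2 was detected in 74.2% of the 1688 arterial cells and the elastic fibre gene Fbln5 in 59.7%. In capillary cells, endothelial cells with none of the 4 arterial genes and at least 2 UMIs over Gpihbp1, Rgcc and Car4, these shares were 23.7% and 3.73%. In cells that should lack Efnb2 the share came to 1.12% for adipocyte progenitors and 0.548% for B cells. Fbln5 was in 46.3% of adipocyte progenitors, which make this protein too, and in 0.986% of B cells. Median UMIs per cell by library lay between 4668 and 5402 in arterial cells, 3727 and 4196 in capillary cells, 8875 and 11407 in progenitors and 3107 and 9967 in B cells.

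Among the selection genes, Sema3g was seen in 87.9% of the arterial cells, Hey1 in 52.7%, Stmn2 in 50.5% and Gja5 in 22.6%. In B cells, which the rule did not screen for these genes, the shares were 0.274%, 0.219%, 0.274% and 0.0548%. In few arterial cells was the whole set detected, and a gene without a UMI may still be expressed. A single one of the 4 genes was detected in 521 cells, a pair in 606, 3 genes in 369 and all 4 in 192.

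The cut at 2 UMIs ran through a gradient rather than a gap. At the cut itself, 467 arterial cells (27.7%) had a sum of exactly 2, and 1148 endothelial cells with a sum of 1 lay just outside. Efnb2 stood at 257 CPM (the UMIs of a gene per 1000000 UMIs of the summed cells of a library, here averaged over 8 libraries) just inside and 182 just outside, against 354 in all arterial cells and 83.5 in capillary cells. Gja4 stood at 39.4 CPM inside and 17.4 outside, and Fbln5 at 106 inside and 37.5 outside. Cells at the cut thus carried much lower levels of Gja4 and Fbln5 than the mean of the arterial cells.

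**Figure D1:**
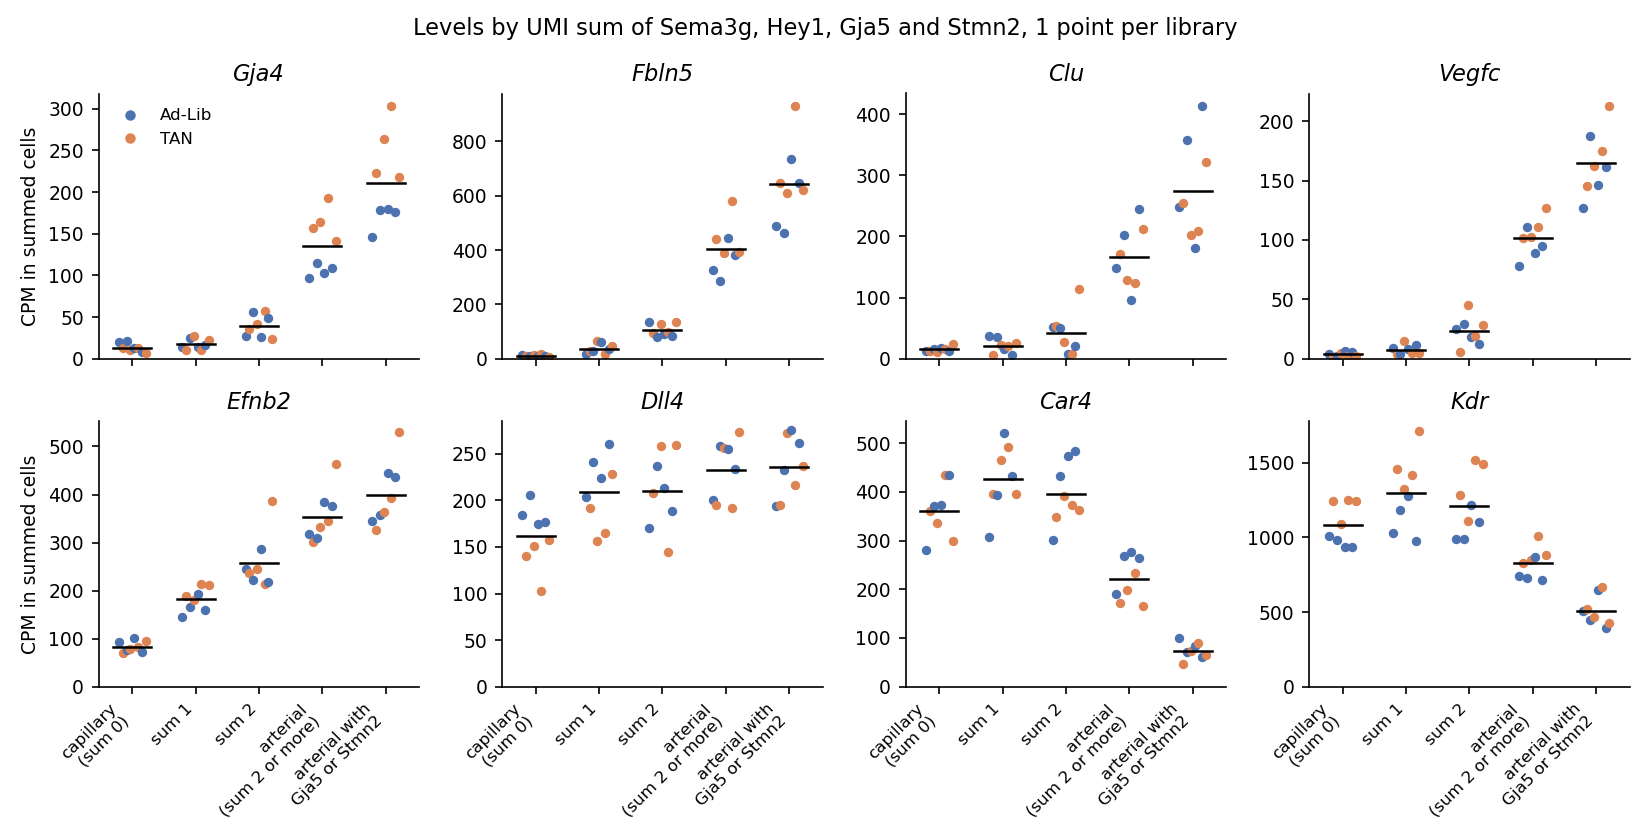
Levels (CPM in summed cells, vertical axes from 0) of 8 genes in cells ordered by their UMI sum of Sema3g, Hey1, Gja5 and Stmn2, with 1 point per library and a bar at the mean of 8 libraries. Gja4, Fbln5, Clu and Vegfc increase in mean at each step from capillary cells to a sum of 2 and are highest in arterial cells with a Gja5 or Stmn2 UMI, where Car4 and Kdr are lowest. Dll4 changes little across the arterial classes. Car4 is also a gene on which capillary cells were selected.

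Between feeding groups the number of arterial cells did not differ detectably. They made up 18.4%, 18.4%, 24.6% and 22.9% of the endothelial cells in Ad-Lib 1, 3, 5 and 7. The shares in TAN 2, 4, 6 and 8 were 19.3%, 19.4%, 21.3% and 23.3%. The ranges overlapped almost wholly, with means of 21.1% ± 3.19 (SD, n = 4) and 20.8% ± 1.90 (SD, n = 4), a difference of -0.27 percentage points and an exact two-sided permutation p of 0.886 over 70 assignments. Counting error alone gave 95% Clopper-Pearson intervals such as 16.2% to 20.7% in Ad-Lib 1 and 22.0% to 27.4% in Ad-Lib 5. As a share of all cells kept, arterial cells made up 4.87% ± 1.2 in Ad-Lib against 4.67% ± 1.43 in TAN (n = 4 each, exact permutation p = 0.83). Neither the median UMIs of arterial cells (5022 ± 280.2 in Ad-Lib and 4899 ± 221 in TAN) nor their median number of genes (1964 ± 76.1 and 1923 ± 76.1) was distinguishable (n = 4 each, exact permutation p = 0.514 for both). The median mitochondrial share was 2.10% ± 0.262 in Ad-Lib against 2.96% ± 0.415 in TAN (n = 4 each), with an exact permutation p of 0.0571. Adjusted over the 5 measures by Benjamini-Hochberg, p was 0.886, 0.886, 0.857, 0.857 and 0.286, and the smallest unadjusted p that 4 against 4 allows is 0.0286.

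**Figure D2:**
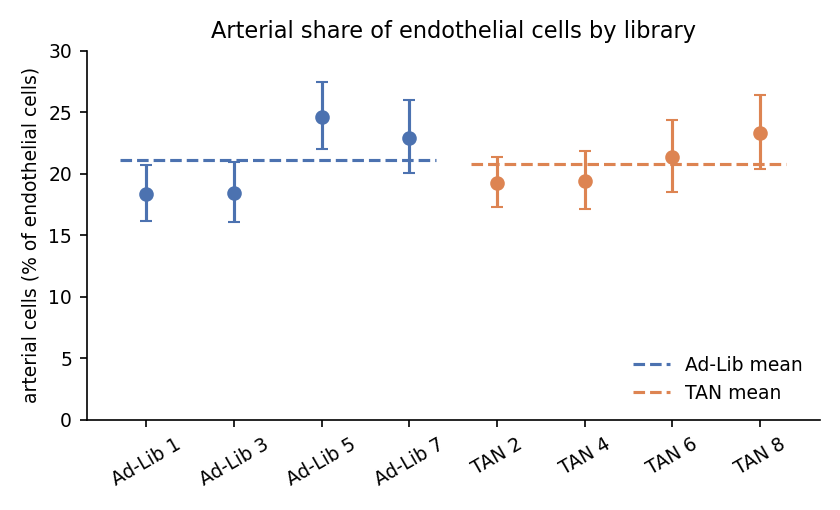
Arterial cells as a percentage of endothelial cells (vertical axis, from 0) in each of the 8 libraries, with 95% Clopper-Pearson intervals as bars and the group means as dashed lines. The Ad-Lib libraries span 18.4% to 24.6% and the TAN libraries 19.3% to 23.3%.

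The genes that separated arterial from capillary cells were taken up next, since they show what these cells carry beyond the selection genes. UMIs were summed per library and class and compared within the 8 libraries by the quasi-likelihood test of edgeR, leaving out the genes that define either class. With a call set at 2-fold or more and an adjusted p (Benjamini-Hochberg) under 0.05, 5.96% of 10704 genes were higher in arterial cells and 2.61% were lower. Of the arterial identity and Notch list, 12 of 28 tested genes were called higher and 0 lower. Its median log2 difference was 0.77 against -0.01 over all genes tested.

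Within that list Gkn3 and Bmx, nearly absent from capillary cells, differed most. Bmx, a tyrosine kinase used as an arterial marker, had a mean of 38.6 CPM in arterial and 0.0351 CPM in capillary cells, and Gkn3, another arterial marker, had 41.1 and 0.0604 CPM. They were followed by Alpl, the tissue-nonspecific alkaline phosphatase, at 83.0 ± 14.0 and 2.59 ± 1.57 CPM (SD, n = 8), Vegfc, a growth factor for endothelial cells, which was 27.9-fold higher, and the secreted chaperone Clu, 11-fold higher. Gja4 (chr4:127311421-127314039 in GRCm38) ranged from 96.3 to 193 CPM in arterial cells and from 7.39 to 21.8 CPM in capillary cells over the 8 libraries, so the classes did not overlap. The log2 difference of Gja4 was 3.25 ± 0.15 (SE) with an adjusted p of 9.97e-16. Efnb2 ranged from 300.5 to 465 CPM and from 70.6 to 102 CPM, 4.14-fold higher in arterial cells (adjusted p = 1.89e-19). Unc5b, a receptor for netrins, was 2.94-fold higher.

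The Notch genes themselves differed less. The ligand Jag1 was 2.67-fold higher in arterial cells and was called. Dll4 was higher by 1.42-fold, Jag2 by 1.67-fold, Notch1 by 1.77-fold, Notch4 by 1.26-fold and Sox17 by 1.64-fold, each past the adjusted p but under 2-fold. Dll4 ran from 192 to 273 CPM in arterial and from 102 to 205 CPM in capillary cells, with overlapping ranges. The Notch targets Hey2 and Heyl were called at 4.79-fold and 2.27-fold, at low levels of 4.97 and 16.8 CPM in arterial cells.

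Genes of the elastic vessel wall were examined next. Of 19 tested members of the elastic fibre and artery wall matrix list, 8 were called higher (Fbln5, Fbln2, Eln, Ltbp1, Mgp, Lox, Fbn1 and Fn1) and 1 lower (Emilin1, a call lost without Ad-Lib 3 or 5 or TAN 4 or 8), with a median log2 difference of 0.48. Fbln5 ranged from 286 to 581 CPM in arterial and from 7.39 to 15.6 CPM in capillary cells, a log2 difference of 5.16 ± 0.09 (SE) with an adjusted p of 1.97e-24. Eln, the elastin gene, had means of 81.3 ± 22.3 and 24.6 ± 9.73 CPM (SD, n = 8). Many of these genes are also made by stromal cells. The adipocyte progenitors of the same libraries held Fn1 at 1648 CPM, Fbln2 at 399 CPM and Eln at 147 CPM on average, so for these the part of free RNA was not tested. Past the adjusted p, 4 of 18 basement membrane genes were higher and 9 lower, against 1619 and 1383 of all 10704 genes. The list had a median log2 difference of -0.17. Only Col18a1 and Lama3, both higher, reached 2-fold.

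Genes of flow and vessel tone split both ways. Of 26 tested members of the list, 8 were called higher (Edn1, Procr, Plat, Ace, Kcnn4, Slc6a6, Trpv4 and Vwf) and Ptgs1 and Adm lower, with a median log2 difference of 0.12. Edn1 ranged from 74.2 to 218 CPM in arterial cells and from 2.53 to 9.85 CPM in capillary cells, 22.8-fold higher in arterial cells (adjusted p = 1.42e-23). Ace, the angiotensin-converting enzyme, was at 132 ± 19.2 and 23.4 ± 7.0 CPM, and the calcium-activated potassium channel Kcnn4 at 20.8 ± 5.31 and 0.738 ± 0.708 CPM (SD, n = 8). Adm, the vasodilator adrenomedullin, was at 25.3 ± 11.3 in arterial and 115 ± 31.5 CPM in capillary cells.

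Against capillary cells the largest differences outside the lists were those of St8sia6, a sialyltransferase, Igf2, an insulin-like growth factor, Slc45a4, a membrane transporter, and Col8a1, a short-chain collagen. St8sia6 was at 89.2 ± 17.2 CPM in arterial and 1.34 ± 0.972 CPM in capillary cells, and Col8a1 at 294 ± 54.5 and 8.91 ± 2.9 CPM (SD, n = 8). Igf2 stood at 68.2 ± 29.6 and 1.59 ± 0.95 CPM. Tgfb2, a growth factor of the TGF-beta family, was at 56.3 ± 22.6 and 2.03 ± 1.17 CPM, and at 52.4 CPM in adipocyte progenitors.

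The lipid-handling machinery of fat capillaries was reduced but not lost in arterial cells. Of 20 tested members of the capillary and lipid handling list, 16 were lower and 4 higher past the adjusted p. Over all 10704 genes, 1383 were lower and 1619 higher past it. By at least 2-fold, 2 of the list were lower and 1 higher, and the median log2 difference was -0.39. The water channel Aqp1 was at 369.9 ± 191 CPM in arterial and 2379 ± 622 CPM in capillary cells, the largest drop among them (log2 difference -2.82 ± 0.10, SE). Fabp5, a fatty acid-binding protein, was 2.28-fold lower. Cd36, the fatty acid transporter, was 1.39-fold lower and lipoprotein lipase Lpl 1.54-fold lower, both under the 2-fold cut. Fabp4, also a fatty acid-binding protein, was at 39263 ± 4345 and 47284 ± 4768 CPM (SD, n = 8), a difference of 1.22-fold.

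Other genes that stood lower in arterial cells were Aplnr, the receptor for apelin, and its ligand Apln, both of sprouting vessels. Aplnr was at 43.3 ± 19.9 CPM in arterial and 213 ± 53.6 CPM in capillary cells, and Apln at 7.66 ± 5.84 and 41.8 ± 20.3 CPM. Cxcl9, a chemokine induced by interferon-gamma, was at 103 ± 41.7 and 513 ± 158 CPM. Of the insulin, leptin and FoxO list, 5 of 21 tested genes were called higher in arterial cells and 0 lower. These were the insulin receptor substrates Irs1 and Irs2, the PI3-kinase subunit Pik3r3 and the binding proteins Igfbp3 and Igfbp4. Irs1 lost its call without Ad-Lib 1 or 7 or TAN 2, with means of only 8.14 and 4.15 CPM.

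Transcripts of other cell types were not evenly spread between the classes. The summed level of 11 mural cell markers (smooth muscle cells and pericytes, which wrap vessels) ranged from 1348 to 3589.7 CPM in arterial and from 472 to 1251 CPM in capillary cells, and 8 of 10 tested markers were called higher. Acta2, the smooth muscle actin gene, was at 424 ± 213 and 19.4 ± 17.9 CPM. Of 7 adipocyte markers, 4 were called lower in arterial cells, with summed levels of 760.4 to 1559 CPM in arterial and 1614 to 3662 CPM in capillary cells. Of 6 tested myeloid markers, C1qa, C1qb and Csf1r were called lower (median log2 difference of the list -0.92). The call of C1qa was lost without any 1 of the 4 Ad-Lib libraries and with DESeq2 (adjusted p = 0.0516), that of C1qb without Ad-Lib 1, 5 or 7 and that of Csf1r without Ad-Lib 1. The 7 markers summed to 34.6 to 112 CPM in arterial and 59.2 to 269 CPM in capillary cells. Of 8 tested progenitor markers, Lum was called lower. All 5 erythrocyte markers were called lower as well, Alas2 in only 1 of the 8 fits that leave out a library, but their sums ran from 23.1 to 3292 CPM between libraries of the same class. The part of RNA from attached cells and doublets in the class differences was not tested. Without the cells of highest simulated doublet score, 971 genes were called in place of 917.

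**Figure D3:**
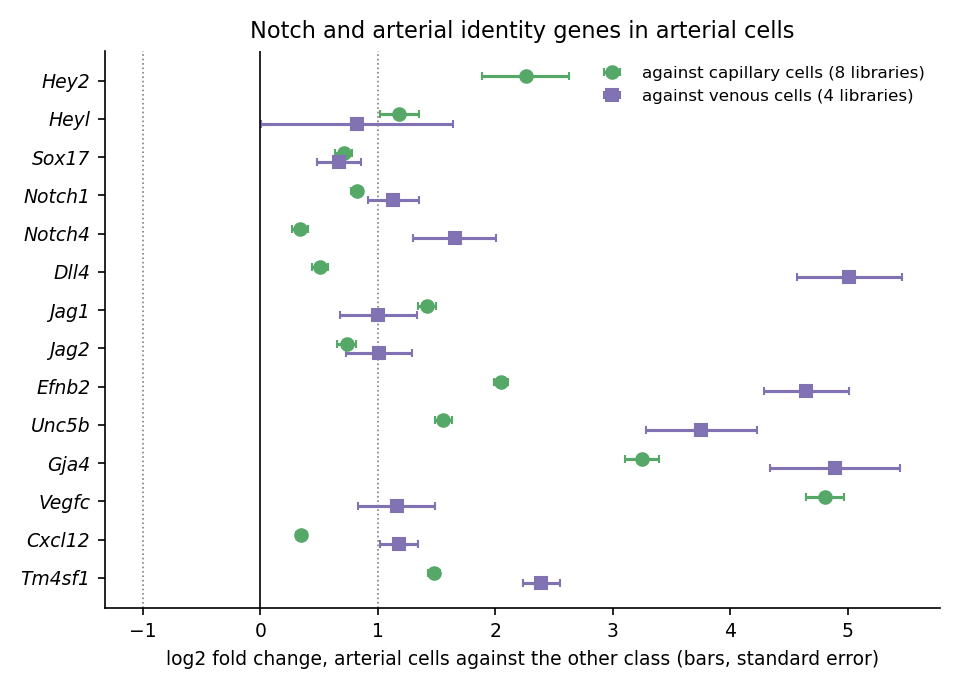
Log2 differences (horizontal axis, bars are standard errors) of 14 Notch and arterial identity genes between arterial and capillary cells (circles, 8 libraries) and between arterial and venous cells (squares, 4 libraries), with dotted lines at a 2-fold difference. Gja4, Efnb2 and Unc5b stand far to the right of 0 in both comparisons, and Dll4 does so only against venous cells, at 5.01 against 0.51. Hey2 was not tested against venous cells.

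Venous cells were rare, and the comparison with them rests on 50 cells of 4 libraries (Ad-Lib 1 and TAN 2, 4 and 8), those with at least 10 cells. These were endothelial cells with no arterial UMI and at least 2 UMIs of Selp and Ackr1. Here 4.22% of 7778 genes were called higher and 3.47% lower in arterial cells, with 16 of 26 tested arterial identity genes called higher and Dll1 lower. When 1 library was left out, Jag1 lost its call in all 4 fits, Bmx without Ad-Lib 1 or TAN 2 or 8, Jag2 without TAN 2 or 4, Notch1 without TAN 2 and Vegfc without TAN 8. Dll1 lost its call without Ad-Lib 1 or TAN 2 or 4 and with DESeq2 (adjusted p = 0.057). With DESeq2, 4 of the 16 genes called higher also missed the threshold, Jag1, Jag2, Vegfc and Bmx, with adjusted p values of 0.193, 0.0861, 0.0946 and 0.246. Dll4 was at 231 ± 39.4 CPM in arterial and 5.64 ± 6.52 CPM in venous cells (SD, n = 4), a log2 difference of 5.01 ± 0.45 (SE) with an adjusted p of 4.03e-13. Efnb2 was at 354 ± 74.9 and 14.5 ± 14.7 CPM. Several genes had no UMI in the 446716 venous UMIs. Against the limit of 3 counts over the group, 6.72 CPM, Sema7a was at least 19.3-fold higher, Alox12 at least 13.1-fold and Gkn3 at least 6.18-fold higher in arterial cells.

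On the venous side, 10 of 14 tested venous and adhesion genes were called lower in arterial cells and 0 higher, with a median log2 difference of -1.95. Lrg1 was at 23.8 ± 17.5 CPM in arterial and 761 ± 176 CPM in venous cells. The adhesion molecule Vcam1 was at 13.4 ± 2.35 and 503 ± 304 CPM, and Nr2f2, the transcription factor that sets venous fate, at 74.9 ± 14.4 and 314 ± 142 CPM (SD, n = 4). Vwf, carried by larger vessels, was higher in arterial than in capillary cells by 8.29-fold but lower than in venous cells (98.5 ± 13.2 against 390.5 ± 197 CPM). Elastin showed the same order, at 78.1 ± 22.3 CPM in arterial and 531 ± 292 CPM in venous cells, while Fbln5 was higher in arterial cells (388 ± 47.0 against 138 ± 28.6 CPM). Of 14 tested elastic fibre and artery wall genes, 4 were called higher and 4 lower than in venous cells (median log2 difference -0.11). Among 24 tested flow and tone genes the counts were 4 and 5 (median -0.13). Edn1, 1.56-fold higher (edgeR adjusted p = 0.128), and Clu, 1.27-fold higher (adjusted p = 0.544), were not called.

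Of 22 tested genes of the capillary and lipid handling list, 8 were called higher in arterial than in venous cells (Rgcc, Car4, Lpl, Pparg, Aqp7, Btnl9, Cldn5 and Kdr) and 4 lower (Fabp5, Aqp1, Slc27a3 and Plvap). Fabp5 was at 495 ± 86.9 CPM in arterial and 2623 ± 1016 CPM in venous cells, and Lpl at 569 ± 43.4 and 229 ± 56.2 CPM. Btnl9 was at 751 ± 133 CPM in arterial and 31.8 ± 56.5 CPM in venous cells, and the VEGF receptor gene Kdr at 825 ± 59.5 and 239 ± 73.7 CPM (SD, n = 4). Markers of other cell types moved with this comparison. Of the adipocyte markers 5 of 6 tested were called higher in arterial cells (median log2 difference 1.90), of the mural markers 6 of 10 and of the erythrocyte markers 3 of 3. With DESeq2, 2 of these 5 adipocyte, 1 of these 6 mural and 1 of these 3 erythrocyte markers passed the adjusted p. The progenitor markers Dcn and Col1a2 were called lower, but Dcn ranged from 0 to 695 CPM in venous cells, both lost the call without Ad-Lib 1, and DESeq2 gave adjusted p values of 0.99 and 0.752. The adipocyte markers summed to 153 to 491 CPM in venous cells of the 4 libraries, below the arterial range given above, the mural markers to 627 to 3686 CPM and the erythrocyte markers to 12.6 to 48.2 CPM. Their part in the difference from venous cells was not tested. DESeq2 called 172 genes higher and 243 lower in arterial than in venous cells, against 328 and 270 by edgeR, so the higher side of this comparison depended more on the tool.

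The arterial cells were divided, as a description, into 928 cells with at least 1 UMI of Gja5 or Stmn2 and 760 cells with neither, which entered through Sema3g or Hey1 alone. Median UMIs by library lay between 4833 and 5579 in the first and 4287 and 5206 in the second. Of 8236 genes other than the selection genes compared within libraries, 5.71% were called higher at 2-fold or more in cells with Gja5 or Stmn2 and 2.27% lower. The division used genes of the selection itself, so these shares of called genes and the levels below are a description only. The levels are given without p-values.

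Gja4 averaged 211 ± 52.0 CPM in the cells with Gja5 or Stmn2 and 34.6 ± 9.88 CPM in the others (SD, n = 8). The junction gene Cdh5, also a selection gene, went the other way, at 1017 ± 117 and 1391 ± 120 CPM. Fbln5 averaged 642 ± 146 and 98.7 ± 22.2 CPM, Vegfc 165 ± 26.9 and 20.4 ± 5.45 CPM, and Clu, a secreted chaperone, 274 ± 82.6 and 28 ± 26.0 CPM. The Notch ligand Jag1 averaged 141 ± 41.7 and 42.9 ± 9.74 CPM. Not all arterial genes followed. Dll4 averaged 236 ± 32.5 and 230.3 ± 52.3 CPM and Notch1 324 ± 43.4 and 308 ± 57.9 CPM, with means less than 1 SD apart, and Efnb2 differed by 1.33-fold.

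Several capillary transcripts were at levels near those of capillary cells in the cells with neither gene, and others were not. Car4, a carbonic anhydrase of capillaries, averaged 411 ± 86.8 CPM in them, 73.7 ± 17.0 CPM in the cells with Gja5 or Stmn2 and 361 ± 55.8 CPM in capillary cells. Capillary cells were selected partly on Car4, so its level in them is a description only. Kdr averaged 1247 ± 185, 509 ± 100.2 and 1086 ± 141 CPM in the same order, and Lpl 1024 ± 276, 423 ± 100.3 and 1045 ± 299.7 CPM (SD, n = 8). Btnl9 averaged 956 ± 168 CPM in the cells with neither gene, above the 452 ± 61.5 CPM of capillary cells. Cxcl9, Aplnr and Adm were below capillary cells, at 209 against 513, 81.2 against 213 and 50.7 against 115 CPM. The leading genes on this side were Slitrk4, Cxcl9, Adm, Aplnr and Slco2b1. Slitrk4, a neuronal-type adhesion protein, averaged 65.8 ± 28 and 5.53 ± 3.08 CPM, and Cxcl9 209 ± 75.3 and 19.7 ± 16.3 CPM.

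The leading genes of the cells with Gja5 or Stmn2 were Gkn3, Igf2, Acta2, Fn1 and Egfl8. Gkn3 averaged 73.1 ± 25.5 and 0.182 ± 0.514 CPM, and Igf2 120.1 ± 55.4 and 2.34 ± 2.80 CPM. Acta2 averaged 706 ± 353 and 59.4 ± 64.3 CPM, and the 11 mural markers summed to between 2104 and 5061 CPM in these cells and between 286 and 1661 CPM in the others. The part of mural RNA in this division was not tested. Restricting both sides to cells of 3000 to 15000 UMIs gave 387 genes called higher and 154 lower, against 470 and 187 in all arterial cells. These counts too are a description only.

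A small set of genes differed between feeding groups in arterial cells. Of 8746 genes tested between the 4 TAN and 4 Ad-Lib libraries, 0.412% were called higher and 0.332% lower in TAN at an adjusted p under 0.05 and at least 1.5-fold, 36 and 29 genes. The 4 TAN levels lay wholly above the Ad-Lib levels in 3.29% of genes and wholly below in 3.11%. The count rested strongly on single libraries, with 29 genes called without TAN 2, 42 without Ad-Lib 1 and 129 without Ad-Lib 5. In the 678 arterial cells with no UMI of 9 marker genes of other cell types, 33 genes were called among 5083 tested. The 9 genes, none of them an adipocyte marker, were Rgs5, Notch3, Acta2, Myh11, Cd79a, Cd3e, C1qa, Lyz2 and Col3a1. The genes that rose with the smallest adjusted p were Me1, Rbp7, Fads3, Sdcbp2 and Anxa3, and genes that fell included 6 glucocorticoid response genes and the clock gene Per1.

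The arterial identity list held 2 of the 36 genes that rose, among 26 tested members, and none that fell. Tm4sf1, a membrane protein of the endothelial surface, was at 1517, 1743, 1582 and 1688 CPM in Ad-Lib 1, 3, 5 and 7 and at 2334, 2498, 2757 and 2611 CPM in TAN 2, 4, 6 and 8. All TAN libraries were above all Ad-Lib libraries, and the log2 difference was 0.65 ± 0.09 (SE) with an adjusted p of 0.0017. Gja4, the connexin of arterial junctions, was at 96.3, 115, 102 and 109 CPM in Ad-Lib and at 157, 164, 193 and 142 CPM in TAN libraries. These ranges did not overlap either, with a 1.56-fold difference (adjusted p = 0.0105). The calls did not hold under every setting, although the differences stayed about as large. In cells free of other markers Gja4 lost its call at a log2 difference of 0.76 (adjusted p = 0.183, main value 0.64), and when 3 arterial UMIs were required Tm4sf1 was at 0.56 (adjusted p = 0.0154), under 1.5-fold. Over the list the median log2 difference was 0.08 against -0.00 over all genes tested, and the other Notch genes stayed below the thresholds.

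The selection genes are described without a test. Stmn2 ran from 269 to 306 CPM in Ad-Lib and from 321 to 364 CPM in TAN libraries, and Gja5 from 44.1 to 90.5 and from 71.5 to 109 CPM. Sema3g ran from 328 to 638 and from 414 to 513 CPM, and Hey1 from 146 to 188 and from 178 to 216 CPM. Efnb2, which was tested, had means of 347 ± 38.2 and 360.4 ± 71.9 CPM (SD, n = 4, adjusted p = 0.908).

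Rbp7, a retinol-binding protein gene of endothelial cells (chr4:149449687-149454978), was among the 3 genes with the lowest adjusted p. It was at 932, 985, 1009 and 837 CPM in Ad-Lib and at 1985, 1885, 2279 and 1745 CPM in TAN libraries. The groups were far apart, at 2.11-fold (log2 difference 1.08 ± 0.11, SE) with an adjusted p of 0.000156. The call held when any 1 library was left out.

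The other 2 were Fads3, of the fatty acid desaturase family, and Me1, the malic enzyme that supplies NADPH for fatty acid synthesis. Me1 was at 12, 13.3, 18.9 and 11.3 CPM in Ad-Lib and at 66.0, 52.5, 48.0 and 45.9 CPM in TAN libraries, 3.90-fold higher without overlap. Fads3 rose from 47.9 ± 8.75 to 123 ± 17.3 CPM (SD, n = 4). Fasn, the fatty acid synthase, was at 28.7, 38.2, 50.5 and 26.1 CPM in Ad-Lib and at 124, 123, 68.8 and 79.0 CPM in TAN libraries, 2.84-fold higher (adjusted p = 0.00345).

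Of 8 tested genes of fatty acid synthesis and thermogenic fat, Fasn and Me1 were called higher and 0 lower, and the median log2 difference was 0.71. Thrsp, Scd1 and Acly, which act in the same pathway, had log2 differences of 0.71, 0.72 and 0.45 with adjusted p values of 0.069, 0.0804 and 0.173. The summed level of 7 adipocyte markers lay between 760.4 and 1517 CPM in Ad-Lib and between 879 and 1559 CPM in TAN arterial cells, so these overlapped. The part of adipocyte RNA in the levels of Fasn, Me1, Thrsp, Scd1 and Acly was not tested. In cells free of other markers Me1 kept its call (log2 difference 1.98) and Fasn did not (log2 difference 1.33, adjusted p = 0.122).

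Of 25 tested members of the angiogenesis and BMP signalling list, Eng, Id1 and Pdgfd were called higher and 0 lower, with a median log2 difference of 0.16. Eng, the TGF-beta and BMP co-receptor endoglin, was at 298, 316, 516 and 416 CPM in Ad-Lib and at 647, 598, 769.7 and 728 CPM in TAN libraries. Id1, a transcription regulator that BMP signalling turns on, was at 795, 858, 603 and 836 CPM in Ad-Lib and at 1411, 1419.7, 1216 and 1194 CPM in TAN libraries. Both were higher in every TAN library than in any Ad-Lib library, by 1.79-fold and 1.71-fold. Id1 lost its call without TAN 2. Pdgfd, a platelet-derived growth factor, rose by 1.73-fold, a call lost without Ad-Lib 1 or TAN 2 and in cells free of other markers (log2 difference 0.71, adjusted p = 0.0747). Id3 rose by 1.44-fold with an adjusted p of 0.0483, under the 1.5-fold cut. The list also held 1 gene that was lower past the adjusted p and under that cut.

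Edn1, the vasoconstrictor endothelin, was the only one of 24 tested flow and tone genes to be called. It was at 74.2, 140.3, 104 and 115 CPM in Ad-Lib and at 205, 145, 218 and 196 CPM in TAN libraries, with TAN 4 only just above Ad-Lib 3. The difference was 1.79-fold (adjusted p = 0.0207) and the call was lost without Ad-Lib 1 or 7 or TAN 2, 6 or 8 and in cells free of other markers (log2 difference 0.73, adjusted p = 0.122). The flow-induced factor Klf2 had a log2 difference of -0.32 (adjusted p = 0.648), and the caveolar genes Cav1, Cavin1 and Cavin2 lay within 0.12 log2 units of 0.

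Other leading genes were Anxa3, a membrane-binding annexin, Ccnd1, the cyclin of the G1 phase, Myl12a, a myosin light chain, Kank4 and Sdcbp2. Ccnd1 was at 57.5, 79.0, 44.2 and 40.0 CPM in Ad-Lib and at 134, 145, 124 and 123 CPM in TAN libraries, 2.42-fold higher. Anxa3 rose from 167 ± 19.6 to 295 ± 11.1 CPM and Myl12a from 403 ± 26.0 to 631 ± 20.9 CPM (SD, n = 4). Kank4 was lowest at 2.66 CPM (Ad-Lib 3) and highest at 62.6 CPM (TAN 6), and Sdcbp2 rose from 9.06 ± 2.13 to 34.0 ± 8.48 CPM.

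**Figure D4:**
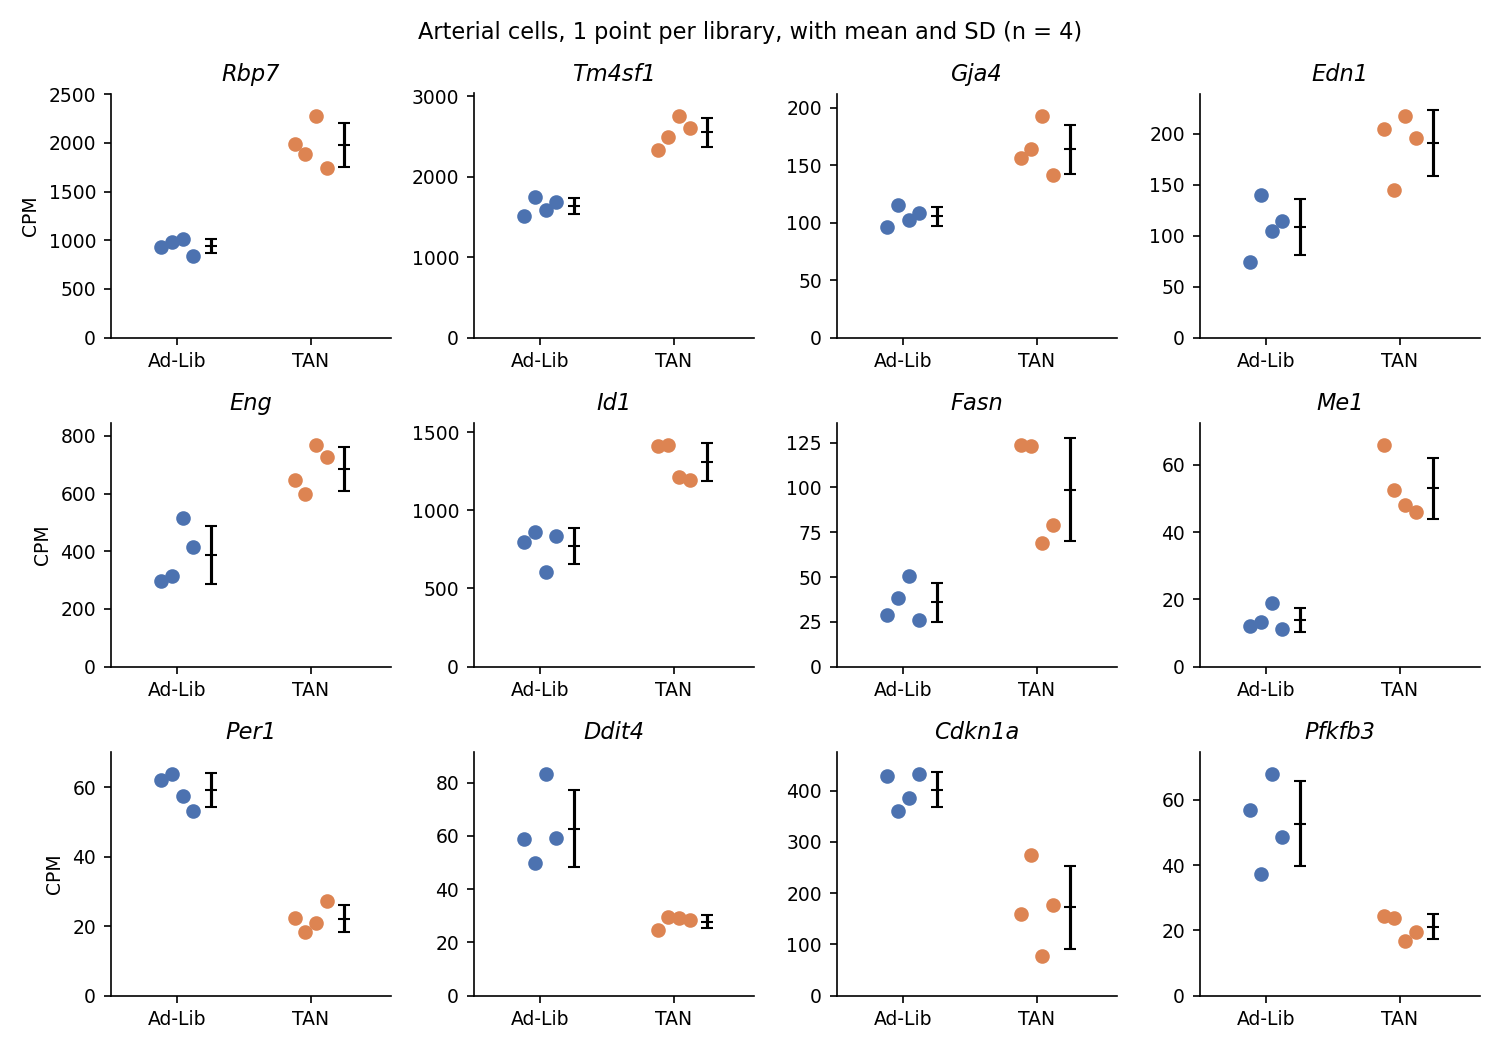
Levels in arterial cells (CPM, vertical axes from 0) of 12 genes called between feeding groups, with 1 point per library and the mean with its SD (n = 4) beside each group. The first 8 genes lie higher in all TAN libraries and the last 4 (Per1, Ddit4, Cdkn1a and Pfkfb3) lower, with the narrowest gap for Edn1.

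The genes that fell included members of the glucocorticoid response list, genes that the glucocorticoid receptor turns on in many cells. Of 17 tested, 6 were called lower and 0 higher, with a median log2 difference of -0.47. Cdkn1a, the cell cycle inhibitor p21, was at 429, 361, 385 and 433 CPM in Ad-Lib and at 159.8, 275, 77.2 and 177 CPM in TAN libraries, without overlap. Ddit4, an inhibitor of mTOR signalling, was at 58.8, 49.7, 83.4 and 59.2 CPM and at 24.5, 29.4, 29.2 and 28.3 CPM, 2.26-fold lower (adjusted p = 0.0017).

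The strength of these 6 calls varied. Only that of Ddit4 held when any 1 library was left out. Tsc22d3, the glucocorticoid-induced leucine zipper, fell from 100.02 ± 19.3 to 59.2 ± 8.34 CPM, and Errfi1, a feedback inhibitor of EGF receptor signalling, from 123 ± 20.2 to 60.4 ± 16 CPM (SD, n = 4). Errfi1 lost its call without Ad-Lib 3, without likely doublets and in cells free of other markers (log2 difference -0.12, adjusted p = 0.946), and Tsc22d3 lost it without Ad-Lib 1 or TAN 4, 6 or 8 and in cells free of other markers (log2 difference -0.82, adjusted p = 0.102). The metallothionein genes Mt1 and Mt2 fell by 2.35-fold and 2.74-fold. Mt1 overlapped between groups by 1 library on each side and lost its call with DESeq2 (adjusted p = 0.193) and in 6 of the 8 fits that leave out a library (all but those without Ad-Lib 5 or TAN 4), while Mt2 lost it without TAN 2, 6 or 8. Cdkn1a lost its call without Ad-Lib 1, 3 or 7 or TAN 2 or 8, with DESeq2 (adjusted p = 0.092) and without likely doublets.

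List members of higher level that were not called were Klf9 (log2 difference -0.47, adjusted p = 0.072), Dusp1 (-0.31, adjusted p = 0.499), Sgk1 (-0.07, adjusted p = 0.921) and the receptor gene Nr3c1 (-0.02, adjusted p = 0.974). In the adipocyte progenitors of the same libraries the level of Mt1 went from 1851 CPM in Ad-Lib to 1058 CPM in TAN and that of Mt2 from 471 to 265 CPM. RNA of such cells can reach arterial droplets, and its part in the metallothionein values was not tested. The same holds for Errfi1, which stood in progenitors at 651 CPM under Ad-Lib against 571 CPM under TAN, and for Tsc22d3, at 175 and 119.7 CPM, both above their arterial levels. Cdkn1a and Ddit4 stood in progenitors at 39.2 and 7.86 CPM in Ad-Lib, below their levels in arterial cells.

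Per1, a repressor of the circadian clock that glucocorticoids also induce, fell as well. It was at 62.2, 63.9, 57.5 and 53.1 CPM in Ad-Lib and at 22.4, 18.3, 20.9 and 27.3 CPM in TAN libraries. Every TAN level lay far below every Ad-Lib level. The log2 difference was -1.40 ± 0.16 (SE, adjusted p = 0.000314), and the call held when any 1 library was left out and in cells free of other markers. It was the only one of 15 tested clock genes to be called. Per3, Tef, Nr1d2 and Clock had log2 differences between -0.17 and -0.04.

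The stretches upstream of these genes were searched for the E-box of clock factors, CACGTG, and for the inverted repeat bound by the glucocorticoid receptor, GNACA and TGTNC with 3 bases between, on both strands of the 250 bases before the annotated start (RefSeq, GRCm38.p6). Of the 7 genes called lower in the clock and glucocorticoid lists, all were matched, Per1 held the E-box and Mt1 the repeat. The shares over all 32851 promoters were 6.02% and 0.387%. The 100 bases around each match are shown with the match in capitals, because they are the only such letters in these windows. The Per1 stretch lies at chr11:69098743-69098842 on the + strand, with the match beginning 166 bases before the start, and that of Mt1 at chr8:94178955-94179054 on the + strand, 94 bases before it.
Per1: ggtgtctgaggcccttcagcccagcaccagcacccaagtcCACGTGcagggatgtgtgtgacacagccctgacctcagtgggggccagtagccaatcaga
Mt1: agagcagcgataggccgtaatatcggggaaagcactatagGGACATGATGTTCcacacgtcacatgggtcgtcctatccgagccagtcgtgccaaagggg

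Pfkfb3, which drives glycolysis in endothelial cells, was the only one of 12 tested glycolysis and hypoxia genes to be called. It was at 56.8, 37.3, 68.0 and 48.7 CPM in Ad-Lib and at 24.5, 23.8, 16.7 and 19.5 CPM in TAN libraries, 2.41-fold lower without overlap (adjusted p = 0.00444). The glycolytic enzymes Gapdh, Pkm, Ldha and Eno1 had log2 differences between 0.18 and 0.28 and were not called.

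Ifi27l2a, an interferon-induced gene, fell from 314 ± 67.8 to 126 ± 18.8 CPM, and H2-Q7, an MHC class I gene with close paralogs among which reads may be split, from 262 ± 14.7 to 156 ± 32.2 CPM (SD, n = 4). Neither is a member of the interferon and antigen presentation list, where 0 of 23 tested genes were called and the median log2 difference was -0.17. Trp53i11 fell by 2.63-fold, a call lost when 3 arterial UMIs were required, and Stxbp6, which binds proteins of vesicle fusion, by 3.26-fold. Ackr3, a scavenger receptor for Cxcl12, fell from 99.3 ± 18.7 to 63.6 ± 4.59 CPM, a call lost with DESeq2 (adjusted p = 0.0532) and in every fit that leaves out a library except that without Ad-Lib 5. Its ligand Cxcl12 had a log2 difference of 0.49 (adjusted p = 0.2).

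Several lists held no called gene. These were the elastic fibre (15 tested), basement membrane (18), capillary and lipid handling (23), insulin, leptin and FoxO (19), and immediate early and heat shock (22) lists. The last of these, whose immediate early genes rise during tissue digestion, had a median log2 difference of -0.31 over its 22 genes. Fos had a mean of 3040.3 ± 491 CPM under Ad-Lib against 2263 ± 961 CPM under TAN libraries, and Egr1 2082 ± 336 and 1224 ± 529 CPM (SD, n = 4), with adjusted p values of 0.584 and 0.192. The wide spread between TAN libraries limited what could be seen of these genes.

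Of the stromal markers in arterial cells, Dcn and Col3a1 fell, but Col3a1 overlapped between groups and kept its call in only 2 of the 8 fits that leave out a library (those without Ad-Lib 5 or TAN 8). Dcn, the decorin gene of fibroblasts, was at 124, 107, 77.8 and 59.2 CPM in Ad-Lib and at 22.4, 32.6, 16.7 and 29.3 CPM in TAN libraries. Its level in adipocyte progenitors was 13681 CPM under Ad-Lib against 12954 CPM under TAN. The 10 progenitor markers summed to between 507 and 888 CPM in Ad-Lib and between 351 and 476 CPM in TAN arterial cells, with Pdgfra at 0 by selection, against 47516 to 62473 CPM in the progenitors themselves. Progenitors made up 21.1% to 32.0% of the cells kept in Ad-Lib and 8.90% to 21.6% in TAN libraries. In arterial cells with no UMI of 9 marker genes of other cell types, the log2 difference of Dcn was -0.45 (adjusted p = 0.764). The sums of mural (1429 to 3589.7 against 1348 to 3204 CPM), myeloid (34.6 to 70.8 against 46.1 to 112 CPM), lymphoid (5.22 to 32.0 against 11.7 to 54.2 CPM), Schwann (1.34 to 4.91 against 2.93 to 6.36 CPM), lymphatic (0.888 to 8.41 against 0.795 to 8.72 CPM) and erythrocyte markers (23.1 to 3007 against 24.6 to 3292 CPM) overlapped between groups.

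Whether the feeding difference was the same in arterial and capillary cells was tested by the interaction of feeding and class within libraries. The arterial and capillary cells came from the same libraries, so both comparisons rest on the same control mice. Of 10704 genes, 0.327% had a feeding difference that was not the same in both classes, 32 more positive in arterial cells and 3 more negative. The count was 19 without Ad-Lib 1, 4 without TAN 2 and 61 without Ad-Lib 5. Among the genes named above it was called for Gja4, Jag2, Sox17, Fbln2, Mgp, Dcn, Acta2, Lpl, C1qa and C1qb. Per1 went from 58.7 to 22.3 CPM, Rbp7 from 226 to 576 CPM, Me1 from 19.8 to 109.6 CPM and Cdkn1a from 369.5 to 145 CPM in capillary cells, with adjusted interaction p values of 0.998, 0.563, 0.465 and 0.952.

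Genes higher in arterial than in capillary cells were among those that differed. Gja4 rose in arterial cells (106 ± 8.25 to 164 ± 21.6 CPM) and stood at 15.8 ± 6.32 and 10.8 ± 2.46 CPM in capillary cells (interaction on the log2 scale 1.19 ± 0.23, SE, adjusted p = 0.00701). Jag2 stood at 112 ± 11.4 and 157 ± 29.3 CPM in arterial cells without overlap, and at 80.8 ± 9.85 and 75.5 ± 7.89 CPM in capillary cells (interaction adjusted p = 0.0292). Fbln2, a fibulin of the vessel wall, stood at 277 ± 70.8 and 251 ± 47.3 CPM in arterial cells but went from 57.6 ± 6.68 to 28.8 ± 10.0 CPM in capillary cells (SD, n = 4, interaction adjusted p = 0.00105). Sox17, Mgp, Mcam, Mecom and Clec14a were called as well, all with the more positive difference in arterial cells. Gja4 lost this call without Ad-Lib 1 or 3, while Fbln2 kept it in all 8 fits that leave out a library. Lpl, with a more negative difference in arterial cells, stood at 727 ± 194 and 644 ± 181 CPM in arterial and at 939.9 ± 194 and 1150 ± 378 CPM in capillary cells (interaction -0.43 ± 0.09, SE, adjusted p = 0.0117), a call lost without TAN 2. The call held in 2 of the 8 fits for Jag2, Sox17 and Mgp, in 1 for Mcam, in 5 for Clec14a and in 7 for Mecom. Within arterial cells Fbln2 and Mgp did not differ detectably between feeding groups (edgeR adjusted p = 0.806 and 0.754).

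The 35 also held 3 of the 7 genes of the myeloid marker list (C1qa, C1qb and Lyz2). Of the 23 interferon and antigen presentation genes they held 2 (H2-Aa and Cd74). Of the 32 arterial identity genes, 4 of them selection genes left out of the test, they held 3 (Gja4, Jag2 and Sox17). Over all 10704 genes the share called was 0.327%. H2-Aa stood at 20.2 ± 3.63 CPM under Ad-Lib against 35.6 ± 12.5 CPM under TAN arterial cells, and at 63.6 ± 24.5 and 27.5 ± 5.59 CPM in capillary cells. C1qa, of complement, went from 48.4 ± 24.1 to 17.4 ± 2.88 CPM in capillary cells, with 11.8 ± 4.33 and 18.6 ± 10.6 CPM in arterial cells (SD, n = 4). The call of H2-Aa held when any 1 library was left out, and that of C1qa was lost without TAN 2. The 7 myeloid markers summed to between 91.8 and 269 CPM in Ad-Lib and 59.2 and 83.2 CPM in TAN capillary cells. Both classes had no Ptprc UMI by selection. The part of RNA from myeloid cells was not tested. The smooth muscle gene Acta2 was also among the 35, a call lost without Ad-Lib 1 or 7 or TAN 2 or 8. The 11 mural markers summed to between 837 and 1251 CPM in Ad-Lib and between 472 and 803 CPM in TAN capillary cells, without overlap. Progenitors held Fbln2 at 399 CPM and Mgp at 190 CPM on average. The part of stromal and mural RNA in the interactions of Dcn, Acta2, Fbln2 and Mgp was not tested.

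**Figure D5:**
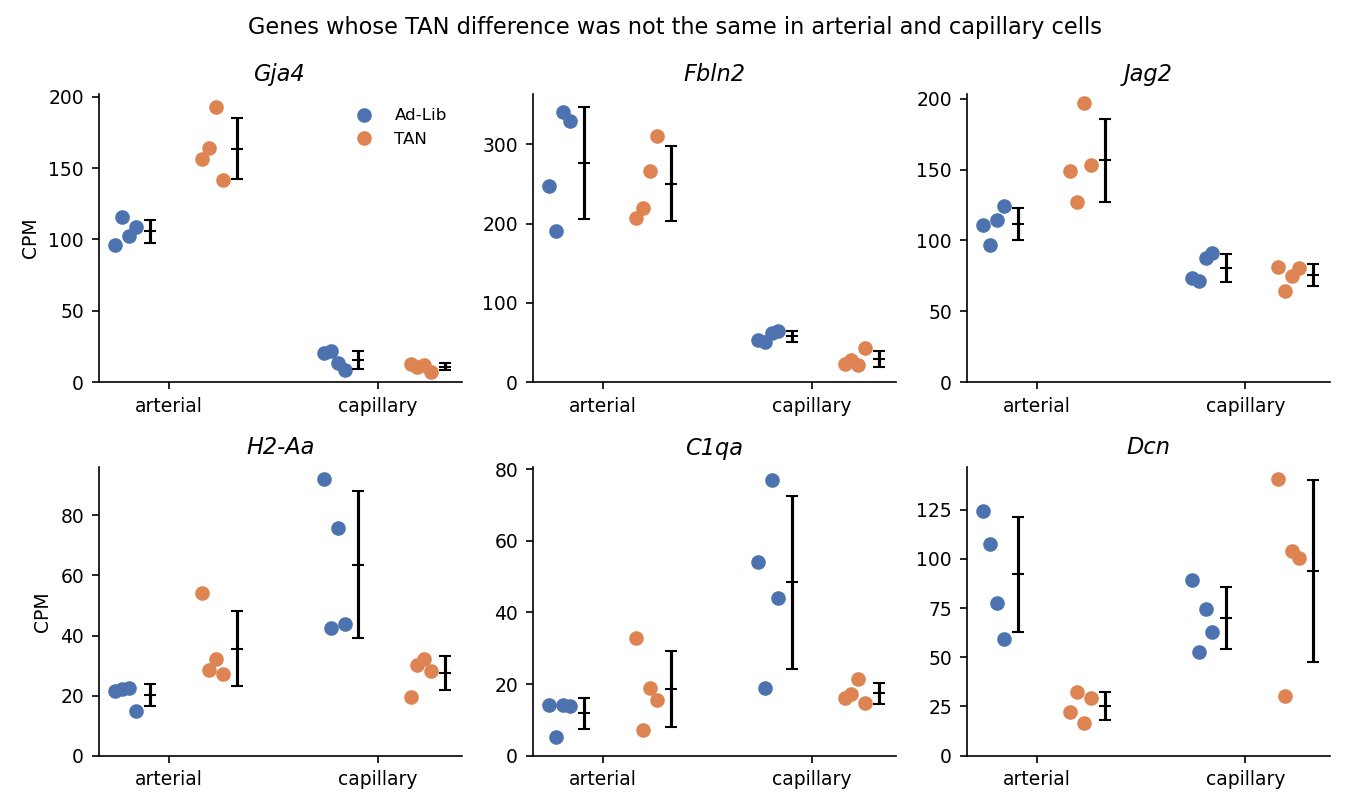
Levels (CPM, vertical axes from 0) of 6 genes in arterial and capillary cells of Ad-Lib and TAN libraries, with 1 point per library and the mean with its SD (n = 4). Gja4 and Jag2 lie higher in TAN arterial cells without a like rise in capillary cells, Fbln2, H2-Aa and C1qa lower on average in TAN capillary cells, and Dcn lower in TAN arterial cells.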

How the data were processed

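Stromal vascular cells of inguinal fat from 4 Ad-Lib and 4 TAN libraries were analysed, grouped by the labels. The authors deposited raw counts of UMIs per gene and barcode. The labels name Cell Ranger 3.0.2 and the file headers 6.0.1, with the mouse genome mm10 (GRCm38) and, per the study's methods, reads in exons. The annotation used for counting is not given in the sources used here. Single-cell gene counts from a 3' kit depend on the annotated 3' ends, and free RNA and doublets add transcripts of other cells.

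Barcodes with 700 to 30000 UMIs, 200 to 8000 genes and at most 10% mitochondrial UMIs were kept, the limits of the study. Likely doublets were kept except in 1 alternative. Arterial cells, the comparison classes and the gene lists were chosen with earlier results of these data known. Libraries were the replicates. Counts were summed per library and class (at least 10 cells) and compared by edgeR 4.0.16 (quasi-likelihood test, TMM scaling, filterByExpr, Benjamini-Hochberg) in R 4.3.3, with class comparisons blocked by library. SE is the log2 difference divided by the root of F. DESeq2 1.42.0 was an alternative. Shares and depth were compared by exact two-sided permutation over 70 assignments. Named genes between feeding groups were up to 10 per direction with the smallest adjusted p and no overlap, every called list gene, and the 4 genes of highest mean CPM of each list. Between classes they were up to 10 per direction of largest difference, at 50 CPM or more and in the same direction in every library, and called list genes (5 per direction for the division by Gja5 and Stmn2, 6 for the interaction). Others named were chosen after their values were seen. Coordinates are from GENCODE M21. The fits were tested on simulated data with known changes. Intervals and limits cover counting error only.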

Additional observations from a re-analysis of the deposited data

Results flagged for a closer look

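Among 74 groups of 4 libraries examined for a value far from the others, 2 held one, and chance alone gives about 1 in 20. In TAN 4 the median number of genes per arterial cell was 1809, against 1958 to 1966 in the other TAN libraries. Errfi1 stood at 36.5 CPM in the arterial cells of TAN 6, against 66.8 to 70.3 CPM in the other TAN libraries.

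A feeding difference that was not the same in arterial and capillary cells, by the interaction test, was led by 6 genes. On the log2 scale, arterial minus capillary, it was 2.19 for H2-Aa, 2.24 for C1qa, 1.95 for H2-Eb1, 1.25 for Retnla, 0.88 for Fbln2 and -2.29 for Dcn, with adjusted p values of 0.000123, 0.000783, 0.00116, 0.000827, 0.00105 and 0.000123. The calls of C1qa, H2-Eb1 and Retnla were lost without TAN 2. For Retnla, a gene of alternatively activated macrophages, the arterial means were 49.2 and 33.5 CPM and the capillary means 126 and 37.9 CPM in Ad-Lib and TAN.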

How the results depend on the processing

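No paired analysis was possible because the groups share no replicate numbers. The difference in the arterial share of endothelial cells, TAN minus Ad-Lib, was -0.27 percentage points. It was 0.0416 when 3 arterial UMIs were required, 0.719 with a mitochondrial limit of 5% and 1.11 in cells thinned to 2000 UMIs, and it ranged from -1.18 to 0.915 when 1 library was left out. As a share of all cells kept it was -0.199, with 0.177 after thinning, 0.815 among cells without a Ptprc UMI and a range of -0.804 to 0.361 with 1 library left out. The difference in median UMIs was -123, with a range of -222 to 3.42. None of these had a p under 0.05, so no direction can be read from them. Between feeding groups 65 genes were called. The count was 244 with no filter on low counts, 33 in cells free of other markers, 68 with DESeq2 and 29 to 129 with 1 library left out. Among alternatives chosen after seeing the data, library totals in place of TMM gave 29 higher and 29 lower, and leaving out Ad-Lib 5 together with TAN 2 gave 98. The interaction count of 35 became 100 with no filter and 4 to 61 with 1 library left out. Against capillary cells 917 genes were called, 881 to 936 with 1 library left out, and against venous cells 598, 423 to 571. Of 32 named genes called between feeding groups, 21 kept their call whichever library was left out, and 0 reversed under the alternatives run, of which that in cells free of other markers gave values for 27 of the 32. The sums rested on 169 to 280 cells per library, which limits what can be seen of genes at a few CPM, and a gene that was not called may still have changed.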
